A study of Mus musculus with 45 samples.

Results

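Matrix metalloproteinases (MMPs), their tissue inhibitors (TIMPs) and the related surface protease ADAM8 were followed across resting and polarized mouse macrophages. The 9 genes were Mmp8, Mmp9, Mmp12, Mmp13, Mmp14, Mmp19, Timp1, Timp2 and Adam8. They were chosen by name, with earlier results of these data known, so a median over them does not stand for the family. All 9 were matched by symbol and then by Ensembl identifier. All were among the 12905 genes tested out of 29307 in the count table. The RNA came from bone marrow-derived macrophages of C57BL/6N mice aged 6 to 10 weeks with an engineered Famin allele, called 254I (the human non-risk form), 254V (the risk form) or 284R (the form found in monogenic disease). No library came from unmodified mice. Marrow cells were grown for 6 days with M-CSF and then left unpolarized (M0), given IFN-γ at 50 ng/mL with LPS at 20 ng/mL (M1), or given IL-4 at 20 ng/mL (M2) for 24 h. There were 5 mice per genotype. Within a genotype, the M0, M1 and M2 libraries sharing a number are treated below as coming from 1 mouse (15 mice), an inference that the labels do not state outright. The 45 libraries, 1 per mouse and state, held 17239009 to 43740283 counted reads each (median 27553642). Levels are given in CPM, reads scaled to the library's total and to TMM factors, and before TMM scaling 1 CPM stood for 17.2 to 43.7 reads, and no member had fewer than 18 reads in any library.

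MMPs are zinc-dependent proteases that are made as inactive precursors and cut collagens, elastin, gelatin and many other proteins outside the cell. Most are secreted, whereas MMP14 sits in the plasma membrane and can activate other MMPs. TIMPs bind active MMPs and block them, so matrix turnover depends on the balance of both. Macrophages are a main source of several MMPs, above all MMP12, also called macrophage elastase.

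The members lie on 7 chromosomes, and positions are those of mm10 from GENCODE vM21. Mmp8 (neutrophil collagenase, ENSMUSG00000005800, chr9:7558456-7568485), Mmp12 (macrophage elastase, ENSMUSG00000049723, chr9:7344381-7369499) and Mmp13 (collagenase-3, ENSMUSG00000050578, chr9:7272514-7283331) belong to a run of 10 Mmp genes over 427 kb of chromosome 9. Mmp9 (gelatinase B, ENSMUSG00000017737) is at chr2:164940780-164955850, Mmp14 (the membrane-type collagenase, ENSMUSG00000000957) at chr14:54431612-54445364 and Mmp19 (a secreted protease, ENSMUSG00000025355) at chr10:128790910-128800824. Timp1 (ENSMUSG00000001131) is at chrX:20870166-20874735, Timp2 (ENSMUSG00000017466) at chr11:118301069-118355740 and Adam8 (ENSMUSG00000025473) at chr7:139978932-139992562. Genes on the opposite strand overlap Timp1 (Syn1), Mmp19 (Gm47093 and Tmem198b), Mmp12 (Mmp1b) and Adam8 (Gm16201), and Cep295nl and Mir7062 overlap Timp2 and Adam8 on the same strand. The libraries were strand-specific, but the strand setting of the counting is not given in the sources used here, so reads of such pairs may not have been told apart.

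Promoter windows from RefSeq (GRCm38.p6) were at hand for 7 of the 9 members. Shown are the 250 bases before the start of Mmp12, Mmp13 and Mmp8, the cluster members that moved together below, and of Mmp14, which fell in M2 where they rose, all on the plus strand and 5′ to 3′. Capitals mark matches on either strand to TGANTCA, the AP-1 motif. They also mark AGGAAG, an ETS core. The last motif in capitals is TATAAA, the TATA box. No matches overlapped.
Mmp12, chr9:7344147-7344396: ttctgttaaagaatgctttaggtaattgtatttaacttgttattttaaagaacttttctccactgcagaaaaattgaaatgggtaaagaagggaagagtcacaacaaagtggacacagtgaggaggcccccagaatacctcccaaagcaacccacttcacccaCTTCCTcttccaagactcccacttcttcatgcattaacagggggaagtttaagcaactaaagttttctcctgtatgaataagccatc
Mmp13, chr9:7272264-7272513: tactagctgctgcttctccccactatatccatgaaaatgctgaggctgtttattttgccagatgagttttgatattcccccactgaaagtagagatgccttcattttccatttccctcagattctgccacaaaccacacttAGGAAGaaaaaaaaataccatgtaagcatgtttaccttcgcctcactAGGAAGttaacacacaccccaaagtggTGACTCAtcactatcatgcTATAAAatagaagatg
Mmp8, chr9:7558179-7558428: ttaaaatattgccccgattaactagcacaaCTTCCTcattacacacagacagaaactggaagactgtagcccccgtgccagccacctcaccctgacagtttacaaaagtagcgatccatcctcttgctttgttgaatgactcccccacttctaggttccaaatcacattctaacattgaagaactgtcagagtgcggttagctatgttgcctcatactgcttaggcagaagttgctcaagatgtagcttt
Mmp14, chr14:54431348-54431597: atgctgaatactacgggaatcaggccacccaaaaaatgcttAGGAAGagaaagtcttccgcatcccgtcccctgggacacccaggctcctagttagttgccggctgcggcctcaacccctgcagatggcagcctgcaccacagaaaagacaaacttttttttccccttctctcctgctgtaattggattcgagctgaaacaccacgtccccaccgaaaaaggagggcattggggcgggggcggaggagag
Over whole windows of 250 bases before to 50 after the start, AGGAAG was found in 5 of the 7 members (Mmp8, Mmp12, Mmp13, Mmp14 and Timp1) and in 35.4% of 32851 promoters. TGANTCA was found in 1, Mmp13, at position -35 from the start, against 7.81% of all promoters. TATAAA was found in Mmp13 at position -16 and, reversed and across the start, in Mmp8, against 13.6% of all. The STAT6 and NF-kB motifs had no match in the 7 windows and were in 6.95% and 1.20% of all promoters. These matches are descriptions of letters, not of bound sites.

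Some libraries stood apart, by marker genes or by members. The M1 library of 254I replicate 5 held the M2 transcripts Retnla at 49.1 CPM and Arg1 at 40.8 CPM, whereas no other M1 library passed 0.249 CPM for Retnla or 0.912 CPM for Arg1. In 254I replicate 4 the M0 and M2 libraries held Fcgr1, a high-affinity Fc receptor, at 1098 and 153 CPM, against at most 463 and 55.1 CPM in the other libraries of those states. The M2 library of 284R replicate 3 was picked by members, after seeing the data. It had the lowest Timp2 (307 CPM) of the M2 libraries. Its Mmp12 (16200.4 CPM) was the highest but level with 254I replicate 2 (16198.7 CPM). The labelled states were otherwise borne out by Nos2 (3.01 to 149 CPM in M1, at most 0.574 CPM elsewhere) and Retnla (1287 to 9295 CPM in M2). Il12b, also listed as an M1 marker, never passed 0.201 CPM in M1 and was not tested. The macrophage markers Adgre1, Csf1r, Cd68, Itgam, Mertk and Fcgr1 together made up 5432 to 11008 CPM in every library, and the lymphocyte and mast cell lists never passed 0.411 CPM in sum. Without the M1 library of 254I replicate 5, without the M2 library of 284R replicate 3, or without any 1 mouse, every call of a member for polarization given below held. This was not run for the other genes named.

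Level per length, as CPM per kb of exon, put Adam8, Mmp12 and Timp2 on top in M0. The length was that of all annotated exons of a gene merged, 7.24 kb for Mmp12 and 4.64 kb for Adam8. The order depends on that choice: by CPM alone Mmp12 averaged 2250 and Adam8 1818 in M0. Adam8 averaged 392 ± 101, Mmp12 311 ± 118 and Timp2 141 ± 22.6 CPM per kb (SD over 15 libraries), and Adam8 was above Mmp12 in 9 of 15 libraries, so that those neighbours did not differ beyond their spread. Mmp9 followed at 56.1 ± 35.9, then Mmp13 at 19.9 ± 4.23, Mmp19 at 17.1 ± 2.33 and Mmp8 at 15.96 ± 5.82, the last 3 within each other's spread. Mmp14 and Timp1 closed the order at 5.05 ± 1.86 and 4.20 ± 1.60 CPM per kb. In M1 Adam8 stayed on top at 180 ± 34.8, and Mmp19 (29.7 ± 3.75) and Timp2 (28.0 ± 6.43) came next, while Mmp14, Mmp13, Mmp12, Mmp9 and Timp1 lay between 4.17 and 6.06 and could not be ordered. In M2 Mmp12 led at 1387 ± 562 and was above Adam8 (667 ± 64.6) in 14 of 15 libraries. Mmp9 (221 ± 149) and Timp2 (138 ± 27.1) overlapped, and Mmp14 was lowest at 2.05 ± 1.11 CPM per kb.

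**Figure D1:**
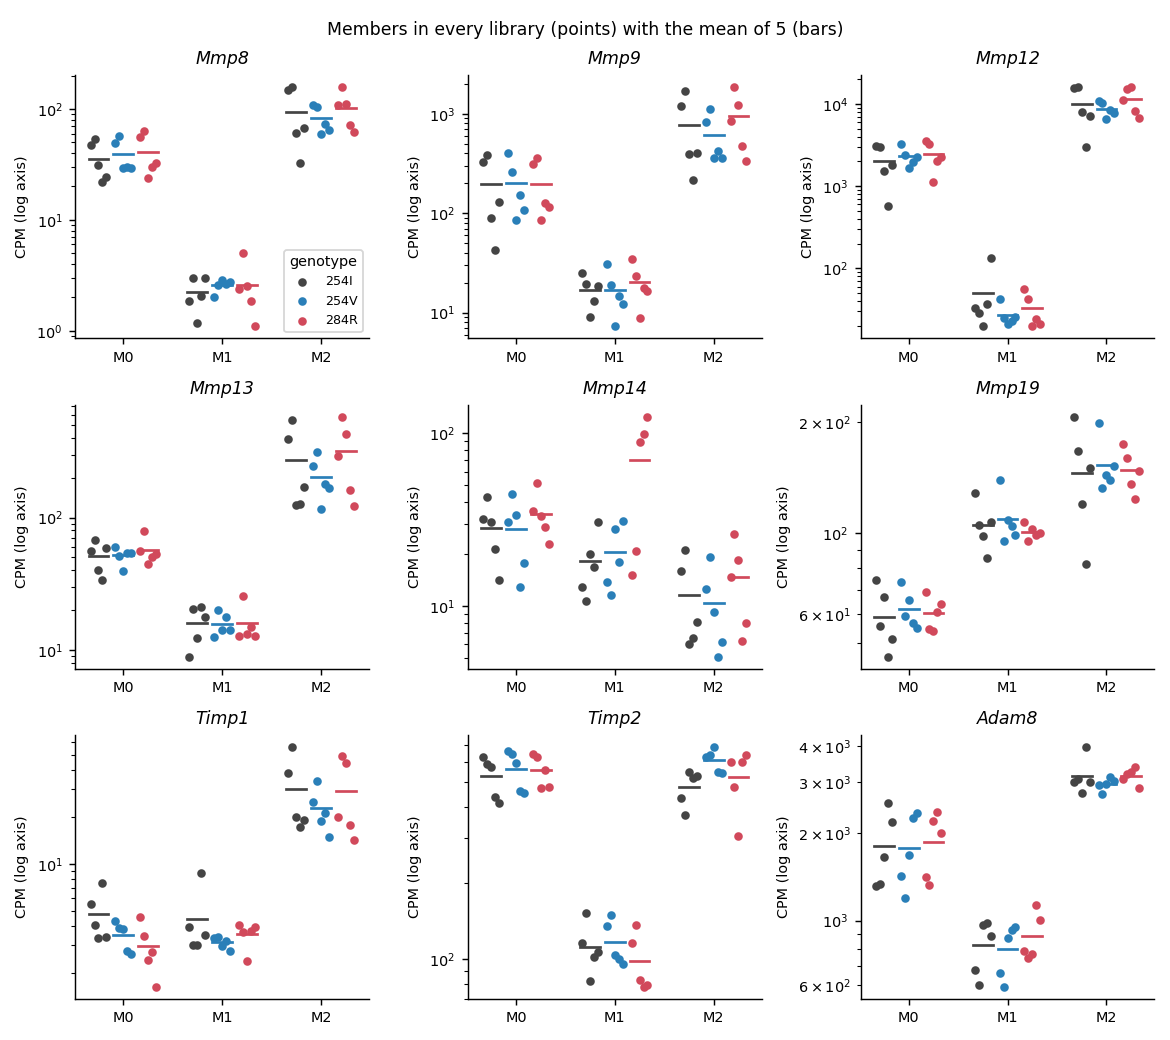
Level of each member in CPM (log axis) in M0, M1 and M2, with 1 point per library, coloured by genotype, and a bar at the mean of 5. Mmp8, Mmp9, Mmp12, Mmp13, Timp2 and Adam8 lay lower in all 15 M1 libraries than in any M0 library, and 3 of the 5 M1 libraries of 284R stood above all others for Mmp14.

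Polarization to M1 lowered most of the proteases. Of the 9 members, 6 fell against M0 (Mmp8, Mmp9, Mmp12, Mmp13, Timp2 and Adam8), 1 rose (Mmp19) and 2 were not called (Mmp14 and Timp1), by edgeR's quasi-likelihood test with the adjusted p taken over all genes tested. Among all 12905 genes 40.3% were called lower and 37% higher, so a call by itself was common, and the sizes are given below. The median log2 fold change of the members was -1.75, beside -0.03 over all genes and -1.76 over the 8 other MMPs tested.

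Polarization to M2 raised most of them. There 7 members rose (Mmp8, Mmp9, Mmp12, Mmp13, Mmp19, Timp1 and Adam8), 1 fell (Mmp14) and Timp2 was not called, where 36.8% of all genes were called higher and 39.6% lower. The median of the members was 1.30 on the log2 scale, beside -0.03 over all genes. It was -0.96 over the 8 other MMPs tested. Set directly against M2, M1 was lower for 8 members and higher for Mmp14, with 40.1% of all genes called lower and 39% higher. The 3 comparisons share libraries, so their counts are not independent.

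**Figure D2:**
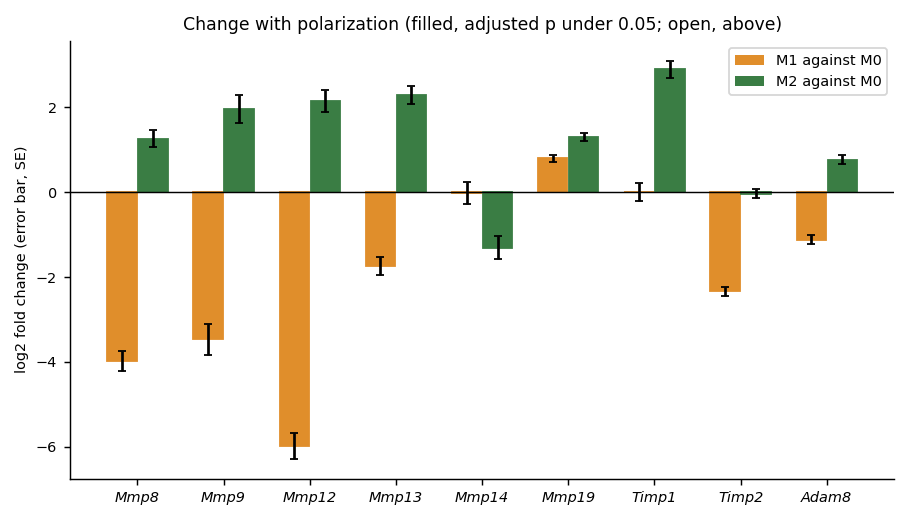
Log2 fold change of each member in M1 (orange) and M2 (green) against M0, averaged over the 3 genotypes, with SE. Filled bars passed the adjusted p, and Mmp12 had the largest fall in M1 (-5.97) while Timp1 had the largest rise in M2 (2.89).

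Mmp12, which degrades elastin, had the largest fall of the members in M1. It was at 579 to 3566 CPM (median 2271) in the 15 M0 libraries, 19.7 to 135 CPM (median 25.4) in M1 and 2950 to 16200.4 CPM (median 8494) in M2. The M1 libraries lay below all M0 libraries, and M2 was above M0 in each of 15 mice although the ranges overlapped. The log2 fold change was -5.97 ± 0.31 (SE) in M1, a 62.8-fold fall (adjusted p = 2e-20), and 2.15 ± 0.26 in M2, a 4.45-fold rise (adjusted p = 1.3e-09). Both extremes came from libraries named above: 254I replicate 4 was lowest in M0 (579 CPM) and M2 (2950 CPM), and 254I replicate 5 was highest in M1 (135 CPM).

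The collagenases Mmp8 and Mmp13 followed the same directions. Mmp8, which cleaves fibrillar collagen, was at 21.9 to 63.4 CPM in M0 (median 31.1), 1.09 to 5.03 CPM in M1 (median 2.51) and 32.8 to 159 CPM in M2 (median 73.4). Its log2 fold change was -3.98 ± 0.24 in M1 (adjusted p = 2.8e-18) and 1.26 ± 0.19 in M2 (adjusted p = 3.2e-07). Mmp13 was at 33.9 to 79.1 CPM in M0 (median 54.2), 8.88 to 25.6 CPM in M1 (median 14.1) and 116 to 581 CPM in M2 (median 181), with no overlap between any pair of states. It fell by 1.75 ± 0.21 on the log2 scale in M1 (adjusted p = 1.6e-09) and rose by 2.29 ± 0.21 in M2 (adjusted p = 1.4e-12).

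Mmp9, a gelatinase that also cuts type IV collagen, was at 43.1 to 408 CPM in M0 (median 130), 7.26 to 34.6 CPM in M1 (median 17.9) and 216 to 1883 CPM in M2 (median 478). It fell 11.1-fold in M1 (log2 fold change -3.47 ± 0.36, adjusted p = 2.6e-11) and rose 3.88-fold in M2 (1.96 ± 0.33, adjusted p = 1.8e-06). M2 was above M0 in 15 of 15 mice, by 2.04 to 14.4 times. The M0 and M2 ranges overlapped.

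Mmp19 was the single member that rose in both states. It was at 46.0 to 74.1 CPM in M0 (median 59.2), 85.5 to 139 CPM in M1 (median 102) and 82.1 to 207 CPM in M2 (median 147). The rise was 0.79 ± 0.09 on the log2 scale in M1 (adjusted p = 1.9e-10) and 1.30 ± 0.09 in M2 (adjusted p = 3.3e-16), and no M1 or M2 library came down to the M0 range. M1 was lower than M2 by 0.51 on the log2 scale (-0.51 ± 0.09, adjusted p = 2.5e-06), in 14 of 15 mice.

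Mmp14 was the single member that fell in M2. It was at 12.9 to 51.6 CPM in M0 (median 30.8) and 5.10 to 26.0 CPM in M2 (median 9.27), with a lower value in M2 in all 15 mice. Its log2 fold change in M2 was -1.31 ± 0.28 (adjusted p = 5.4e-05). In M1 it ran from 10.7 to 125 CPM (median 19.9), higher than M0 in 6 of 15 mice, and the change from M0 averaged over genotypes was -0.02 ± 0.27 (adjusted p = 0.949). That average joined unlike changes. M1 was at 0.25 to 0.45 times M0 in mice of numbers 1 and 2, and at 0.65 to 5.48 times in numbers 3 to 5. All 6 rises were in numbers 3 to 5, sets drawn after seeing the values. M1 was above M2 by 1.29 ± 0.28 on the log2 scale (adjusted p = 6.3e-05), in 11 of 15 mice. The mice in which M1 was not above M2 all had numbers 1 or 2.

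The inhibitors went separate ways. Timp1, a secreted inhibitor, was low in M0 at 1.63 to 7.51 CPM (median 3.44) and in M1 at 2.38 to 8.72 CPM (median 3.404), and reached 14.1 to 56.1 CPM in M2 (median 19.98). The rise in M2 was 7.41-fold (log2 fold change 2.89 ± 0.20, adjusted p = 7.5e-16), above every M0 and M1 library, while the M1 difference was 0.00 ± 0.21 (adjusted p = 0.992). Syn1, which overlaps Timp1 on the other strand, averaged 45.6 ± 7.93 CPM in M0, 17.9 ± 4.35 in M1 and 52.6 ± 6.85 in M2, and its part in the Timp1 counts was not tested. Timp2, which blocks MMPs and also takes part in the activation of MMP2 by MMP14, was at 414 to 666 CPM in M0 (median 576), 77.9 to 153 CPM in M1 (median 104) and 307 to 689 CPM in M2 (median 548). It fell 5.05-fold in M1 (-2.34 ± 0.11, adjusted p = 3.5e-22), while M2 differed from M0 by -0.04 ± 0.10 (adjusted p = 0.745).

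Adam8, a membrane protease that sheds surface receptors, differed between all states. It was at 1198 to 2552 CPM in M0 (median 1690.2), 592 to 1131 CPM in M1 (median 872) and 2734 to 3968 CPM in M2 (median 3020.2), with no overlap between states. It fell 2.17-fold in M1 (-1.12 ± 0.11, adjusted p = 2.6e-12) and rose 1.70-fold in M2 (0.77 ± 0.11, adjusted p = 3.4e-08).

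Along chromosome 9 the genes in order were Mmp13, Mmp12, Mmp1b, Mmp3, Mmp1a, Mmp10, Mmp8, Mmp27, Mmp20 and Mmp7. Besides the members, Mmp27 averaged 32.8 ± 10.8 CPM in M0, 0.864 ± 0.316 in M1 and 13.1 ± 2.97 in M2, so it fell in both states (log2 fold change -5.24 and -1.32). Mmp10 fell in M1 from 0.690 ± 0.204 to 0.0294 ± 0.0402 CPM (-4.43) and rose in M2 to 1.04 ± 0.348 CPM (0.57). Mmp1a, Mmp1b and Mmp3 averaged at most 0.0373 CPM in any state and were not tested. Mmp20 and Mmp7 had 0 reads in all 45 libraries, which allows up to 0.0686 to 0.174 CPM per library by a limit of 3 reads, for counting error only.

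**Figure D3:**
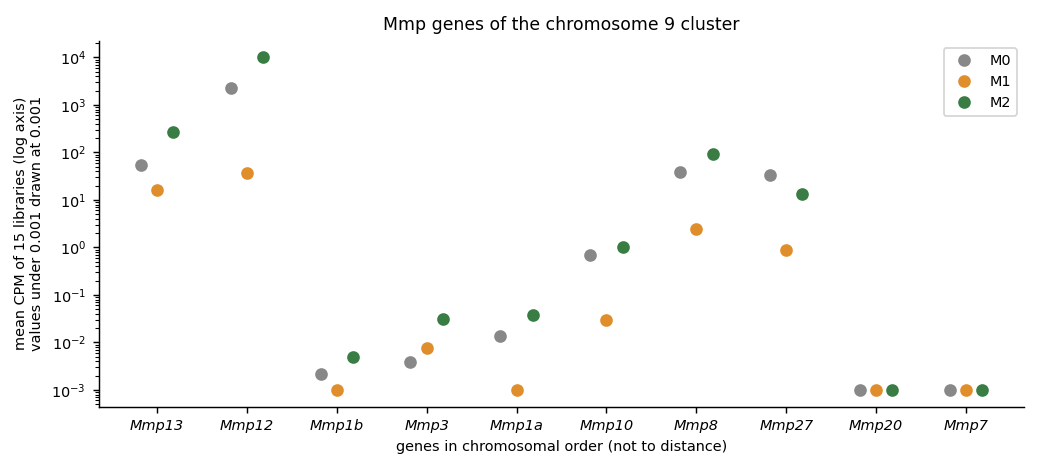
Mean CPM (log axis) of the Mmp genes of chromosome 9 in chromosomal order, over 15 libraries in each state, with values under 0.001 drawn at 0.001. Levels are to be compared between states within a gene, and Mmp13, Mmp12, Mmp10 and Mmp8 share the order M2, M0, M1 from high to low while Mmp27 is highest in M0.

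No member was called between genotypes in any of the 13 comparisons by edgeR's quasi-likelihood test. Averaged over the states, 1 member had an unadjusted p under 0.05 for 284R against 254I (Mmp14), for 254V against 254I (Timp1) and for 284R against 254V (Mmp14). At that same threshold stood 565, 323 and 607 of the 12905 genes. Averaged over the states Mmp14 was higher in 284R than in 254I by 0.86 ± 0.27 on the log2 scale (adjusted p = 0.578 by edgeR). The fit held no mouse term, so in these averages libraries of the same mouse counted as independent. The SE and p-values of the averages may therefore be too small. By the adjusted p 0.0155% of all genes were called for 284R against 254I and 0.0155% for 254V against 254I, and 0% for 284R against 254V. Within M0 and M2 none of the 9 had an unadjusted p under 0.05 for either genotype against 254I, and the shares of all genes called were 0% in M0 and 0.00775% in M2 for 284R and 0% in both for 254V. A p that misses the threshold does not show equal levels: in M1 the SE of Mmp14 was 0.48 on the log2 scale.

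For Mmp14 in M1 the call depended on the test. In 284R replicates 1 to 5 it was 15.04, 20.7, 89.4, 98.5 and 125 CPM. In 254I it was 12.8, 10.7, 19.9, 16.9 and 30.5 CPM, and in 254V 13.8, 11.6, 27.8, 17.9 and 31.2 CPM. Replicates 3, 4 and 5 of 284R thus stood above every other M1 library, while replicates 1 and 2 lay within the range of the other genotypes. Set against 254I of the same number, 284R was higher in 5 of 5, by 1.17, 1.93, 4.49, 5.84 and 4.08 times. The log2 fold change was 1.94 ± 0.48, with an adjusted p of 0.071 by edgeR's quasi-likelihood test, where 0.263% of all genes (34) were called. Replicate numbers deviated together in M1. With the replicate block in edgeR the adjusted p was 0.04 (log2 fold change 2.001), which changed the call. That block held number terms common to M0, M1 and M2, so it did not adjust for deviations of M1 alone. Averaged over the 3 genotypes, Mmp14 was 46.3 CPM for number 2 and 18.2 CPM for number 5 in M0, but 14.4 and 62.1 CPM in M1. The last of these means held 284R at 125 CPM, beside 30.5 CPM in 254I and 31.2 CPM in 254V. The adjusted p was 0.0165 by DESeq2, 0.257 by limma-voom and 0.809 when only the libraries compared were used. It was 0.012 without 284R replicate 1 and 0.0105 without 284R replicate 2, and highest, at 0.476, without 284R replicate 5. The change from M0 to M1 was larger in 284R than in 254I by 1.66 ± 0.66 on the log2 scale, with an adjusted p of 1 (unadjusted p = 0.0156) by edgeR, and 0% of all genes were called in any of the 4 comparisons of such changes. For 254V against 254I in M1 the difference was 0.18 ± 0.47 (adjusted p = 1), and 0% of all genes were called.

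The same 3 libraries of 284R were high for some other M1 genes. Fcgr1, which averaged 405 CPM in M0 and 1210 CPM in M1, was not among them. It was at 1286, 1205 and 1124 CPM in these libraries, against 1064 to 1387 CPM in 254I. Nos2, inducible nitric oxide synthase, was 25.6, 8.60, 81.5, 149 and 131 CPM in 284R replicates 1 to 5, against 3.01 to 26.0 CPM in 254I and 4.92 to 20.9 CPM in 254V. Acod1, which makes itaconate and was picked after its values were seen, was 255, 234, 1186, 1343 and 1325 CPM in 284R, against 125 to 361 CPM in 254I and 127 to 383 CPM in 254V. Cxcl9, an IFN-γ-induced chemokine, was 3350, 1777, 5340, 4723 and 5125 CPM in 284R and 979 to 3659 CPM in the other genotypes. Whether the levels of Nos2, Acod1 and Cxcl9 and that of Mmp14 share a source was not tested. In M0 Mmp14 was higher in 284R than in the 254I library of the same number in 5 of 5, by 1.08 to 1.61 times, but the difference of 0.29 ± 0.46 on the log2 scale had an adjusted p of 1 by edgeR.

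**Figure D4:**
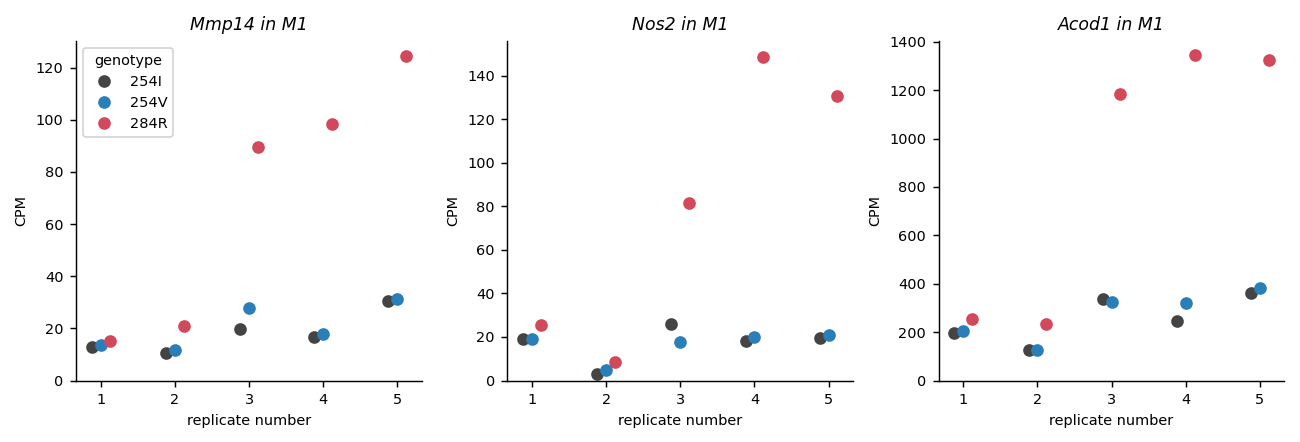
Mmp14, Nos2 and Acod1 in the 15 M1 libraries, in CPM from 0, by replicate number and coloured by genotype. For Mmp14, 284R replicates 3, 4 and 5 lay at 89.4 to 125 CPM and all other libraries at or below 31.2 CPM.

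Timp1 in M0 was 4.59, 3.44, 2.43, 2.72 and 1.63 CPM in 284R and 5.50, 4.03, 3.33, 7.51 and 3.39 CPM in 254I, lower in 284R for 5 of 5 numbers. The groups overlapped and the difference was -0.67 ± 0.36 on the log2 scale (adjusted p = 1 by edgeR). In 254V it was 4.30, 3.87, 3.83, 2.75 and 2.65 CPM. Every member overlapped between 254I and each of the other genotypes in every state. Besides the values above, the same direction at all 5 numbers was found for 254V against 254I in Timp2 in M0 (1.03 to 1.10 times) and M2 (1.04 to 1.72 times) and in Mmp14 in M1 (1.02 to 1.40 times), all higher in 254V and none called. The shares of all genes that overlapped, or that kept the same direction at all 5 numbers, were not computed. These patterns therefore do not set the members apart from other genes.

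Levels also differed between replicate numbers. Tested beside genotype within each state, a test added after seeing the data, 7 of 9 members differed between the 5 numbers in M0 (all but Mmp12 and Timp1), 6 in M1 (all but Mmp8, Mmp12 and Timp1) and 3 in M2 (Mmp9, Mmp14 and Mmp19). The shares of all genes called were 48.3%, 38.9% and 19.5%. What a number shares across genotypes is not given in the sources used here. In M0 Mmp8 was at 47.7 to 63.4 CPM in the 6 libraries of numbers 1 and 2 and at 21.9 to 32.7 CPM in the 9 of numbers 3 to 5, without overlap. Mmp9 was at 258 to 408 CPM against 43.1 to 153 CPM, and Mmp12 at 2411 to 3566 CPM against 579 to 2284 CPM. Adam8 was reversed, at 1198 to 1426 CPM against 1652 to 2552 CPM. These sets of numbers were drawn after seeing the values and carry no test.

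**Figure D5:**
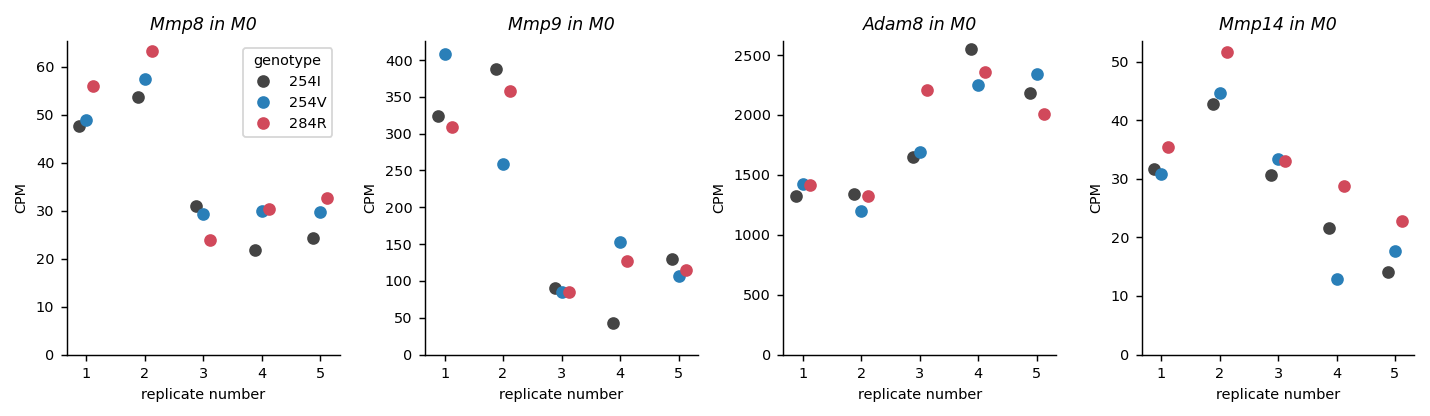
Mmp8, Mmp9, Adam8 and Mmp14 in the 15 M0 libraries, in CPM from 0, by replicate number and coloured by genotype. Numbers 1 and 2 lay above 3 to 5 for Mmp8 and Mmp9 and below them for Adam8 in all 3 genotypes.

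Markers of neutrophils, which also carry MMP8 and MMP9 in their granules, moved with these numbers in M0. The summed level of 10 neutrophil genes was 115 to 332 CPM in M0 for numbers 1 and 2 and 30.9 to 107 CPM for numbers 3 to 5, and their part in the Mmp8 and Mmp9 levels was not tested. Between these sets of numbers the sums overlapped in M1 (medians 100 and 64.8 CPM) and in M2 (70.7 and 34.6 CPM). The medians in M1 were 2.48 and 2.51 CPM for Mmp8, and 24.1 and 13.1 CPM for Mmp9. In M0 S100a9 reached 125 CPM, Ngp 77.7, S100a8 69.1, Ltf 48.9 and Camp 7.53 CPM, and Mpo, Prtn3, Elane, Cxcr2 and Ly6g at most 1.48, 1.42, 0.859, 0.738 and 0.461 CPM. Ly6g, a surface marker of neutrophils, was at 0 in some libraries of each state. Across states the sum went against Mmp8 and Mmp9 in M2: its range was 30.9 to 332 CPM in M0, 46.9 to 154 CPM in M1 and 18.6 to 83.8 CPM in M2. Of the 9 neutrophil genes tested, 6 fell and 1 rose (Cxcr2) in M2, and 5 fell in M1. Over all genes 39.6% were called lower and 36.8% higher in M2, and 40.3% lower in M1. In bulk RNA fewer cells of a type and less RNA per cell cannot be told apart.

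Osteoclast genes, which also serve fusing macrophages, moved in the directions of Mmp8, Mmp9, Mmp12 and Mmp13, apart from Ocstamp in M1. Their summed level of 7 genes was 273 to 1019 CPM in M0, 27.2 to 103 CPM in M1 and 1595 to 2142 CPM in M2, and all 5 tested rose in M2, while 4 fell and Ocstamp rose in M1. Over all genes 36.8% were called higher in M2, and 40.3% lower and 37% higher in M1. Atp6v0d2, a proton pump subunit, was at 213 to 919 CPM in M0 and 1073 to 1618 CPM in M2. The calcitonin receptor gene Calcr, which defines mature osteoclasts, never passed 0.0325 CPM, and 7 fibroblast genes summed to 17.4 to 92.2 CPM in M0, 6.87 to 21.1 CPM in M1 and 10.1 to 34.1 CPM in M2. The sum of 3 dendritic cell genes was 0.430 to 1.42 CPM in M0, 0.103 to 0.910 CPM in M1 and 3.87 to 12.6 CPM in M2. The 1 tested, Zbtb46, fell in M1 (-0.98) and rose in M2 (3.69), while Flt3 and Ccr7 never passed 0.317 and 0.396 CPM. The part of these cell types in the MMP levels was not tested.

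The rest of the family was read from gene lists. Over all genes 40.3% were called lower and 37% higher in M1, and 39.6% lower and 36.8% higher in M2. The counts of this list and of those that follow are to be read beside these shares. Of 17 other MMPs 8 were tested, and 6 fell and 1 rose in M1, and 6 fell and 1 rose in M2, with medians of -1.76 and -0.96 on the log2 scale. Mmp25, a membrane-anchored MMP of leukocytes, was the one that rose in M1, from 0.548 ± 0.159 to 41.1 ± 8.85 CPM (log2 fold change 6.23 ± 0.15, adjusted p = 7e-32), and it fell in M2 to 0.294 ± 0.144 CPM (-0.90 ± 0.23). Of 12 inhibitors 8 were tested, and 7 fell in M1, among them Serpine2 (-2.75 on the log2 scale) and the membrane-bound MMP inhibitor Reck (-1.498). In M2 4 of them fell and 2 rose, with Serpine2 (-1.05) and Timp3 (-0.81) among those that fell.

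Of 12 activators and cofactors tested, 9 fell and 3 rose in M1, and 9 rose and 2 fell in M2, beside the shares of all genes above. Plaur, the urokinase receptor, was at 50.7 ± 14.5 CPM in M0, 20.4 ± 3.66 in M1 and 216 ± 99.7 in M2 (-1.32 and 2.08 on the log2 scale, adjusted p = 6.6e-08 and 9.8e-13). Plau, which makes the protease urokinase that activates plasminogen, fell in M1 (-1.62) and was not called in M2 (0.20, adjusted p = 0.264). Lcn2, listed here as a partner of MMP9, fell in M2 from 10.2 ± 7.13 to 2.48 ± 1.18 CPM (-2.02). Of the 9 neutrophil genes tested, 6 also fell in M2 and 1 rose, and a shared source with Lcn2 was not tested. Rhbdf2, a cofactor of ADAM17, rose in M1 (1.25), as did the furin-like protease gene Pcsk7 (0.59) and Bsg (0.11), which codes for an inducer of MMPs, while Rhbdf1 fell in M1 (-2.82) and M2 (-0.38). Cd44, a hyaluronan receptor that holds MMP9 at the cell surface, and Cd151 both rose by 0.78 in M2.

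Of 11 other ADAM and ADAMTS proteases tested, 8 fell and 2 rose in M1, and 5 fell and 4 rose in M2. Calls in either direction were common over all genes, by the shares given above, and this holds for the cathepsins and matrix genes below. Adamts1, an aggrecan- and versican-cutting protease, fell in M1 (-3.52), as did Adam22 (-4.11), a family member without protease activity, which also fell in M2 (-2.54). Adam19 fell in both states (-0.73 and -0.60), Adam33 fell in M2 (-0.49), Adamts10 rose in M2 (0.63), and Adam15 (0.35 and 0.51) and Adam9 (0.18 and 0.14) rose in both. Among 12 cathepsins 6 fell and 5 rose in M1, and 8 fell and 4 rose in M2. Ctsc, which activates serine proteases, rose from 328 ± 84.0 to 5178 ± 330 CPM in M1 (3.99) and fell to 123 ± 30.5 CPM in M2 (-1.42). The collagen- and elastin-cutting Ctsk went with Mmp12, falling in M1 (-3.22) and rising in M2 (1.15), while Ctsl fell by 2.72 and Ctsf by 1.77 in M1. Ctsh (1.66 and -1.14) and Ctse (1.23 and -1.5) rose in M1 and fell in M2, and Ctsz (0.998) and Ctss (0.37) rose in M2. Of 15 matrix protein genes 14 fell and 1 rose in M1, and 12 fell and 1 rose in M2, Fn1, the gene of fibronectin, named here after its values were seen, from 38.7 ± 24.7 to 357 ± 152 CPM (3.18).

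Across the 45 libraries the 3 genes most like each member were found by Pearson's r of log2 CPM, a description in which libraries of 1 mouse and of 1 state are not independent points. Mmp12 was most like Fam78b, Atp6v0d2 and Dnmt3aos (up to 0.99), and Mmp8 like Mmp12, Chst11 and Fam78b (up to 0.99). Mmp9 was most like Lat, Cd63 and Fam78b (up to 0.98), and Mmp13 like Eef1a2, Ccr1 and Wdr1 (up to 0.98). Timp2 was most like Plxnc1, Gprc5c and Cebpa (up to 0.99), and Adam8 like Myo1e, Rbpj and Kcnk13 (up to 0.98). Timp1 was most like Fgf2, Cdh1 and Dnajc1 (up to 0.96), and Mmp19 like Itpk1, Atp5a1 and Ndufa13 (up to 0.95). Mmp14 had the weakest matches, Nfkbia (0.86), Clec4e (0.86) and Ninj1 (0.83), and its r with the other members ran from -0.29 to -0.46.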

How the data were processed

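RNA of 45 macrophage libraries was sequenced as strand-specific single-end reads. The deposited tables hold raw read counts per gene and CPM, which the authors made for mm10; the submitters' processing notes name FastQC, Trim Galore, HISAT2 and limma, while the series text names other aligner and trimming tools. The counter and its strand setting are not given in the sources used here. The deposited CPM values were whole reads in 100% of cases (tolerance 0.02 reads) and equalled the counts.

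Counts were tested with edgeR 4.0.16 in R 4.3.3: filterByExpr over 9 groups, TMM factors (0.939 to 1.10) and the robust quasi-likelihood test in 1 fit, with Benjamini-Hochberg adjusted p under 0.05 over all 12905 genes. SE was the absolute log2 fold change over the root of F. CPM in the text were computed from the counts with TMM-scaled library totals. Alternatives used DESeq2 1.42.0, limma 3.58.1, other filters, blocks and left-out mice or libraries. Scripts were tested on simulated counts.

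Libraries were said to deviate together where their deviations from the group means correlated above 0.1, over 8211 genes. Same-numbered libraries of different genotypes did so in 15 of 15 pairs in M0 (correlation 0.124 to 0.879) and in M1 (0.285 to 0.876). In M2 it was 13 of 15 pairs (-0.432 to 0.780). Same-mouse libraries did so in 13 of 15 pairs of M0 and M1 (0.0777 to 0.488). It was 15 of 15 for M0 and M2 (0.115 to 0.644) and 10 of 15 for M1 and M2 (-0.205 to 0.473). The series text gives 5 mice per genotype and the titles a genotype, number and state; that a genotype and number name 1 mouse was inferred from these.

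Members and lists were chosen with earlier results of these data known. All members are named; list genes were named by the rule of at most 3 largest called changes per direction with a mean of 1 CPM or more in M1 or M2 against M0, and genes outside it are marked where named. Some items that the rule or the motif search covers are not reported here. p-values measure the spread between these libraries.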

Additional observations from a re-analysis of the deposited data

Results flagged for a closer look

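Within groups of 5, 4 of 81 member and group combinations held a library far from the other 4 by Dixon's criterion (gap over range above 0.71), where chance gives about 1 in 20. Mmp12 in 254V M1 replicate 1 was 42.5 CPM against 21.2 to 25.4 CPM in the others. Mmp13 in 284R M1 replicate 2 was 25.6 CPM against 12.7 to 14.9 CPM. Timp1 in 254I M1 replicate 4 was 8.72 CPM against 3.01 to 3.93 CPM, and that mouse was also highest for Timp1 in 254I M0, at 7.51 CPM. Timp1 in 284R M1 replicate 3 was 2.38 CPM against 3.66 to 4.04 CPM.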

How the results depend on the processing

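All 24 called differences of members between states kept call and direction in every alternative value computed (600 of 600), which covered other normalization, filters, tools, blocks and left-out mice or libraries. Uncalled values near 0 changed sign. Timp1 in M1 against M0 was -0.013 with a minimum of 10 counts, -0.00078 by DESeq2 and -0.0025 from reads recovered from the CPM table. Mmp14 in M1 against M0 was 0.069 with the replicate block and 0.044 with the replicate block by mouse. Mmp14 in 254V against 254I was -0.0014 without a filter, -0.015 with the replicate block, -0.0026 by limma-voom and -0.0019 with mouse as a random block, and its 284R change from M0 to M2 was -0.0043 by limma-voom. With 1 mouse or library left out, Timp1 in M1 against M0 ran from -0.049 to 0.067, Timp2 in M2 against M0 from -0.073 to 0.011 and Mmp14 in M1 against M0 from -0.16 to 0.14. Mmp14 in 254V against 254I ran from -0.14 to 0.14 on average, -0.25 to 0.18 in M0, -0.019 to 0.44 in M1 and -0.50 to 0.19 in M2, and its change differed by -0.15 to 0.62 from M0 to M1 and -0.32 to 0.00196 from M0 to M2. The change of Mmp14 from M0 to M2 in 284R ran from -0.14 to 0.19. Of 3042 alternative values of genotype differences 253 changed sign, and none of those was called. The cause was not tested.

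The count of members called for 284R against 254I in M1 was 0, and it was 1 (Mmp14) with the replicate block and by DESeq2, and 0 to 1 with 1 mouse or library left out (1 without 284R replicate 1 or 2). The replicate block changed no other call of a member. Over all genes that comparison gave 34 calls, 64 with the replicate block, 64 by DESeq2, 11 by limma-voom, 7 with mouse as a random block and 1 from only the libraries compared, and 284R against 254I on average gave 2, 7 with the block and 11 by DESeq2. The libraries of 254I replicate 5 in M1 and of 284R replicate 3 in M2 and the recovered reads were chosen as alternatives after seeing the data.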
